A study of Homo sapiens with 12 samples.

Results

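Ribosome biogenesis was followed through 49 genes that encode nucleolar factors of rRNA transcription, rRNA modification and processing, and ribosomal subunit assembly, most of them known as MYC targets. The members were listed by name for their function, and their Ensembl identifiers were matched to symbols. All 49 were found among the 21207 genes of the deposited table, and all 49 were among the 17767 genes tested. By role, 6 act in transcription by RNA polymerase I, 4 form box C/D and 4 box H/ACA small nucleolar ribonucleoproteins, 14 act on the small subunit, 15 act on the large subunit, and 6 are nucleolar regulators.

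The cells were HEYA8, an established human ovarian cancer line, grown for 48 h with colforsin daropate, a water-soluble derivative of forskolin that activates adenylyl cyclase. The 4 groups were vehicle, 1 µM, 5 µM and 10 µM colforsin daropate, with 3 libraries in each, which the series design calls biological replicates. Each library of total RNA, depleted of ribosomal RNA, carries a label number of 6, 8 or 11, and each number occurs once in every group. The series asks what the compound does to MYC-driven ovarian carcinoma cells, and the comparisons with vehicle all use the same 3 vehicle libraries.

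Ribosomes are built in the nucleolus, where RNA polymerase I transcribes a long precursor of the rRNAs. Small nucleolar ribonucleoproteins then modify this precursor, box C/D particles by methylation and box H/ACA particles by pseudouridylation, while assembly factors cut and fold it into the small and large subunits. MYC is known to activate RNA polymerase I transcription and many genes of this machinery, and fast-growing tumour cells often have enlarged nucleoli.

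Values are on the log2-like variance-stabilised scale on which they were deposited, where a gene with no reads lies at 4.86, and differences are treated minus vehicle on that scale. The read steps in the table put the depth between 23.7 megareads, in vehicle 6, and 47.3 megareads, in the 5 µM library of number 8. The carcinoma keratins KRT8 and KRT18 and the mesenchymal genes VIM and FN1 were at 13.1 or above in every library. The epithelial gene EPCAM (5.45 to 5.72) and the leukocyte gene PTPRC (4.86 to 5.91) were near the floor. Other genes of the same lists were low as well. These were the keratin KRT19 (4.86 to 5.94), the mesenchymal gene S100A4 (5.45 to 5.97), WT1 (6.89 to 7.73) and MSLN (7.29 to 7.86). CDH5, a defining endothelial gene, lay between 10.8 and 13.1, while PECAM1 (5.57 to 7.39) and VWF (6.83 to 8.05) were low, and the carcinoma genes PAX8 and KRT7 were at 11.5 or above in all 12 libraries. Vehicle 6 stood apart from the other vehicle libraries in genes of cell division: the median of 19 mitosis genes was 11.4 there, and 9.33 and 8.94 in vehicles 8 and 11. Number 6 was also above numbers 8 and 11 at 1 µM (11.3, against 10.0 and 9.71) and at 5 µM (10.7, against 9.88 and 9.46). At 10 µM it lay between them (9.46, against 9.62 and 9.35).

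Most members were lower with the drug, by small amounts. Against vehicle, 1 µM gave a median member difference of -0.10, 5 µM one of -0.23 and 10 µM one of -0.30, where the median over all tested genes was 0.00 at each dose. At 10 µM the group mean was lower than in vehicle for 45 members, higher for 3 and equal for 1, and the differences ran from -1.28 for FBL to 0.33 for UBTF. In these bulk libraries, a change in the number of cells of a kind and a change in RNA per cell cannot be told apart.

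**Figure D1:**
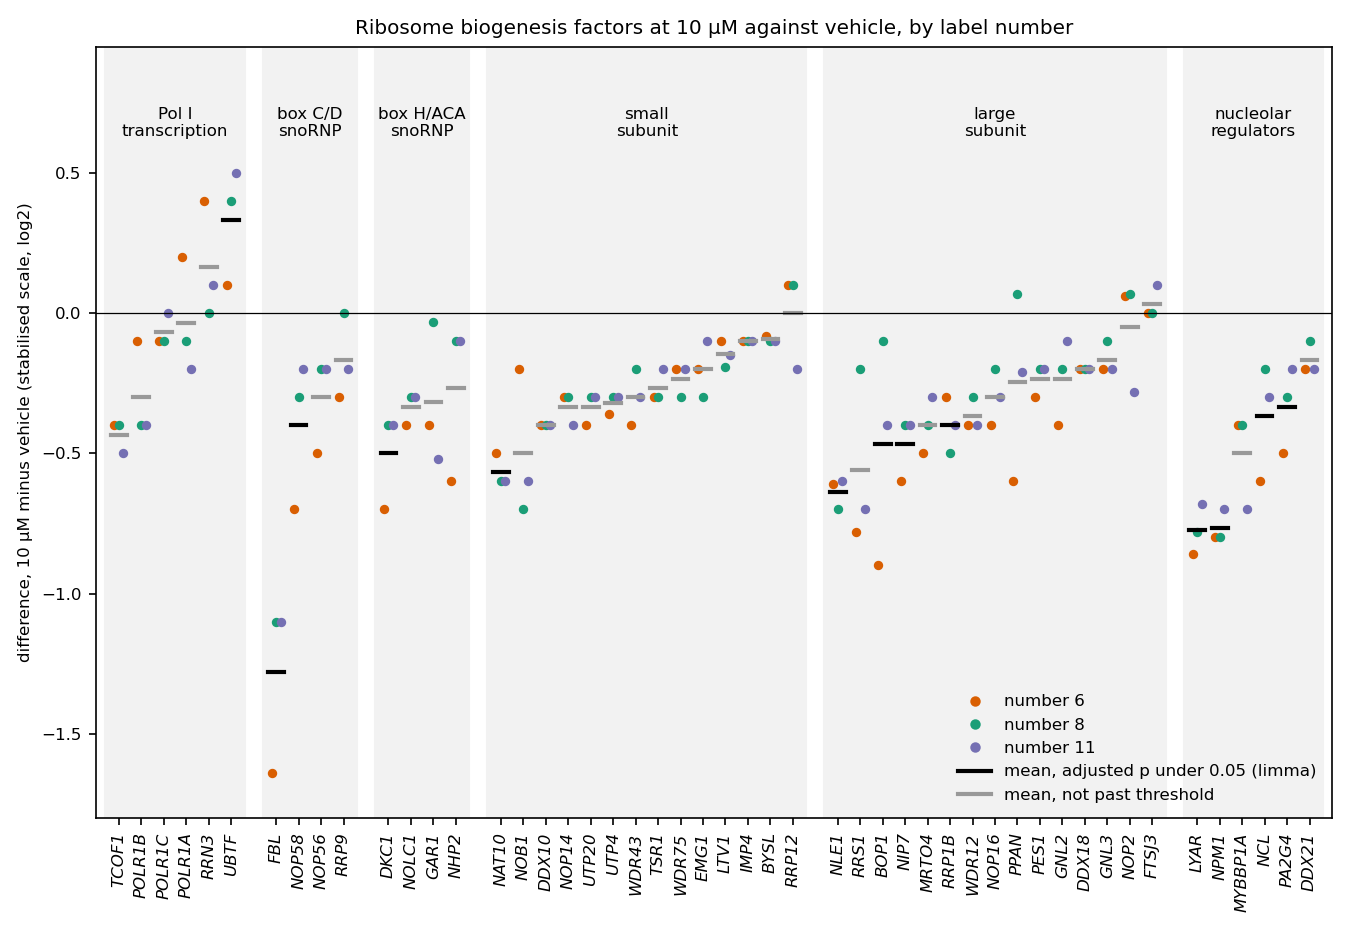
Difference at 10 µM from the vehicle library of the same label number (log2-like stabilised scale, y axis) for each of the 49 members, arranged by role on the x axis. Points are the 3 label numbers and bars their mean. Bars are black where limma's adjusted p was under 0.05 in the fit that does not pair libraries by label number. The FBL mean is lowest at -1.28 and the UBTF mean highest at 0.33.

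With limma, a linear model fitted to all 12 libraries with p adjusted by the Benjamini-Hochberg method over all tested genes, 1 member fell at 1 µM, 6 fell at 5 µM and 12 fell at 10 µM at an adjusted p under 0.05. Of all tested genes, 0.613%, 7.44% and 11.4% fell at these doses. This fit did not pair libraries by label number, and later calls and leave-outs are from it unless another setting is named. No member rose at 1 µM or at 5 µM and 1 rose at 10 µM, where 1.18%, 7.67% and 11.2% of all tested genes rose. At an unadjusted p under 0.05, the 1 µM dose had 0 members higher and the 5 µM dose 1. The share of all tested genes at that threshold was not counted. Limma-voom on recovered reads called 0 members higher at either dose, beside 1.22% and 7.96% of all tested genes. The members that fell were FBL at 1 µM, then FBL, NAT10, NLE1, RRP1B, NPM1 and LYAR at 5 µM. At 10 µM these 6 were joined by NOP58, DKC1, BOP1, NIP7, NCL and PA2G4.

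The label numbers were taken to pair the libraries, since those of 1 number deviated together from their group means (r of 0.316 to 0.777). Libraries of numbers 8 and 11 deviated together as well (0.202 to 0.57), and those of number 6 against both (-0.711 to -0.287). With the label number as a block in the same model, 10 members fell at 1 µM, 24 at 5 µM and 36 at 10 µM, against 5.26%, 15.3% and 19.7% of all tested genes. Every member called without the block was also called with it. UBTF rose with the block at 5 µM and 10 µM, as did 15.3% and 18.7% of all tested genes. The 12 members that passed neither fit at 10 µM were POLR1A, POLR1C, RRN3, RRP9, IMP4, RRP12, BYSL, LTV1, NOP2, FTSJ3, GNL3 and PPAN.

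Single libraries moved these counts. Without the block, the 12 members lower at 10 µM became 4 without vehicle 8, 6 without vehicle 11 and 5 without the 10 µM library of number 6, where 8.05%, 8.21% and 8.22% of all tested genes fell. They became 28 without every library of number 6, where 17.2% of all tested genes fell. Leaving out number 8 gave 2 and leaving out number 11 gave 3, beside 1.42% and 2.78% of all tested genes. The 6 members lower at 5 µM became 11 without vehicle 6 and 23 without number 6 throughout, beside 8.8% and 13.8% of all tested genes. They became 2 without vehicle 8, vehicle 11 or the 5 µM library of number 6, beside 4.56%, 4.28% and 4.62%, and 1 without number 8 or number 11 throughout, beside 0.315% and 0.523%. At 1 µM, the call of FBL was lost without any single library other than the 5 µM and 10 µM libraries of number 6, with limma adjusted p of 0.0543 to 0.148.

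The direction was shared by the label numbers for most members. At 10 µM, 40 of the 49 were lower than the vehicle library of the same number in all 3 numbers, and 27.5% of all tested genes were. The count was 32 at 5 µM and 22 at 1 µM, beside 25.9% and 22.1% of all tested genes. For 17 members every 10 µM library lay below every vehicle library, as for 16.8% of all tested genes: the 12 that fell, and NHP2, GAR1, UTP20, GNL2 and DDX18.

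**Figure D2:**
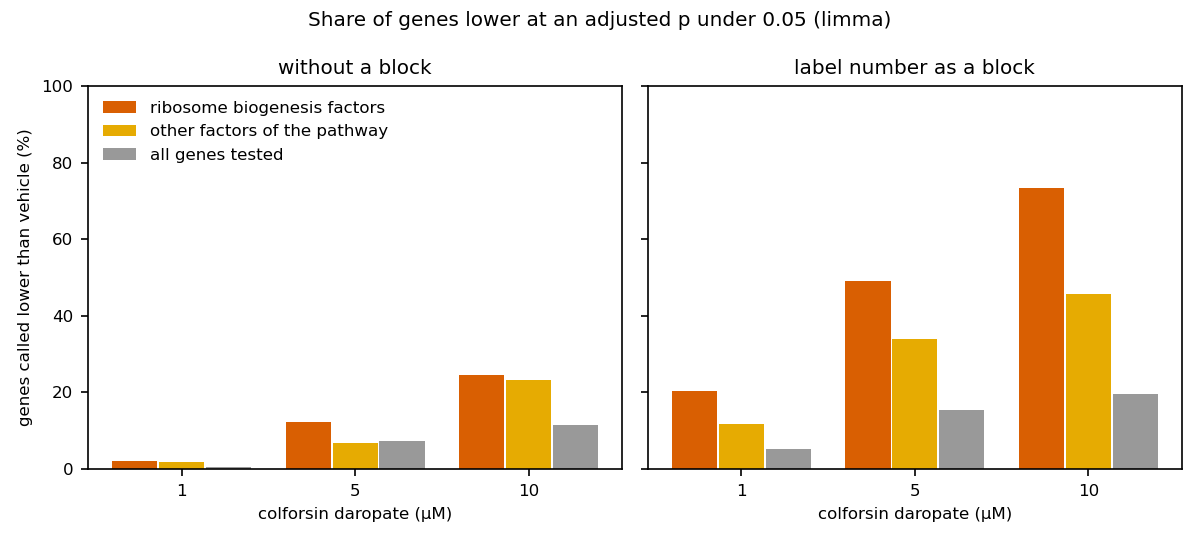
Percent of genes that fell at each dose of colforsin daropate (limma, adjusted p under 0.05) among the 49 members, among 103 other factors of the pathway and among all tested genes, without and with the label number as a block. Without the block 12 of 49 members fell at 10 µM, beside 11.4% of all tested genes.

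Among the 6 genes of RNA polymerase I transcription, UBTF rose at 10 µM and the other 5 did not pass the test. UBTF encodes the upstream binding factor that opens rDNA chromatin and recruits the polymerase (chr17:44205033-44221626, minus strand, GRCh38). UBTF had values of 12.4, 12.1 and 12 in vehicle libraries 6, 8 and 11, then 12.5, 12.3 and 12.3 at 1 µM, 12.5, 12.4 and 12.4 at 5 µM, and 12.5 in each of the 3 libraries at 10 µM. All the 10 µM libraries lay above all the vehicle libraries, though in number 6 by only 0.10. The difference at 10 µM was 0.33 ± 0.10 (SE, n = 3 each; limma adjusted p = 0.0308), and mean normalised counts at 10 µM were 1.254 times those of vehicle. At 5 µM the difference was 0.27 ± 0.10 (limma adjusted p = 0.0939), and it passed with the block (0.0135), without vehicle 6 (0.00799) and without number 6 (0.00235, or 0.0208 at 1 µM). The 10 µM call was lost without any 1 of the 10 µM libraries, vehicle 8 or vehicle 11, with limma adjusted p of 0.0709 to 0.123, and without number 8 or number 11 (0.317 and 0.294). UBTF is among 21 members that share exon bases with genes on the opposite strand, and whether counting used strand is not given in the sources used here.

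TCOF1 encodes treacle, the UBTF partner at rDNA that is mutated in Treacher Collins syndrome (chr5:150357629-150400308, plus strand). Its values were 11.9, 12.4 and 12.4 in vehicle libraries 6, 8 and 11, 11.9, 12.3 and 12.2 at 1 µM, 11.7, 11.9 and 11.9 at 5 µM, and 11.5, 12 and 11.9 at 10 µM. Each 10 µM library was lower than the vehicle of its own number, but the groups overlapped, with vehicle 6 the lowest of its group. The difference of -0.43 ± 0.16 had a limma adjusted p of 0.0813, or 0.000339 with the block and 0.0151 without vehicle 6. POLR1B, the second-largest subunit of the polymerase, differed by -0.30 (limma adjusted p = 0.156, or 0.00728 with the block). The largest subunit POLR1A was at -0.03 and POLR1C, shared with RNA polymerase III, at -0.07. RRN3, the initiation factor that links the polymerase to its promoter, had a mean difference of 0.17 (limma adjusted p = 0.479), made of 0.40 in number 6 and an average of 0.05 in numbers 8 and 11.

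FBL and NOP58, 2 of the 4 box C/D genes, fell at 10 µM. FBL encodes fibrillarin, the methyltransferase of the particle (chr19:39834458-39846414, minus strand). FBL had values of 11.5, 11.3 and 11.3 in vehicle libraries 6, 8 and 11, 10.8, 11 and 10.8 at 1 µM, 10.3, 10.4 and 10.5 at 5 µM, and 9.86, 10.2 and 10.2 at 10 µM. Every treated library, at each of the 3 doses, was below every vehicle library. Mean normalised counts of FBL were 2589 ± 216 in vehicle, then 1814 ± 153, 1296 ± 94 and 1037 ± 142 with 1, 5 and 10 µM (SD, n = 3 each), so that 0.401 of the vehicle level was present at the highest dose. The differences were -0.50 (limma adjusted p = 0.041), -0.97 (2.46e-04) and -1.28 ± 0.11 (2.48e-05). No other member had a difference as large at any of the doses. Only the 1 µM call depended on single libraries, since any library but the 5 µM and 10 µM ones of number 6 was needed for it.

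NOP58, a scaffold protein of the same particle, was at 12.4, 12.4 and 12.3 in vehicle libraries 6, 8 and 11, 12.1, 12.3 and 12.3 at 1 µM, 12, 12.2 and 12.2 at 5 µM, and 11.7, 12.1 and 12.1 at 10 µM. The 10 µM libraries did not overlap with vehicle, and the difference was -0.40 ± 0.11 (limma adjusted p = 0.0235, but 0.0707 without the 10 µM library of number 6, 0.0743 without vehicle 8, and 0.172 or 0.108 without number 8 or 11). Its partner scaffold NOP56 differed by -0.30 (limma adjusted p = 0.241, or 0.00655 with the block), and RRP9, which binds the U3 RNA, by -0.17 (limma adjusted p = 0.673).

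**Figure D3:**
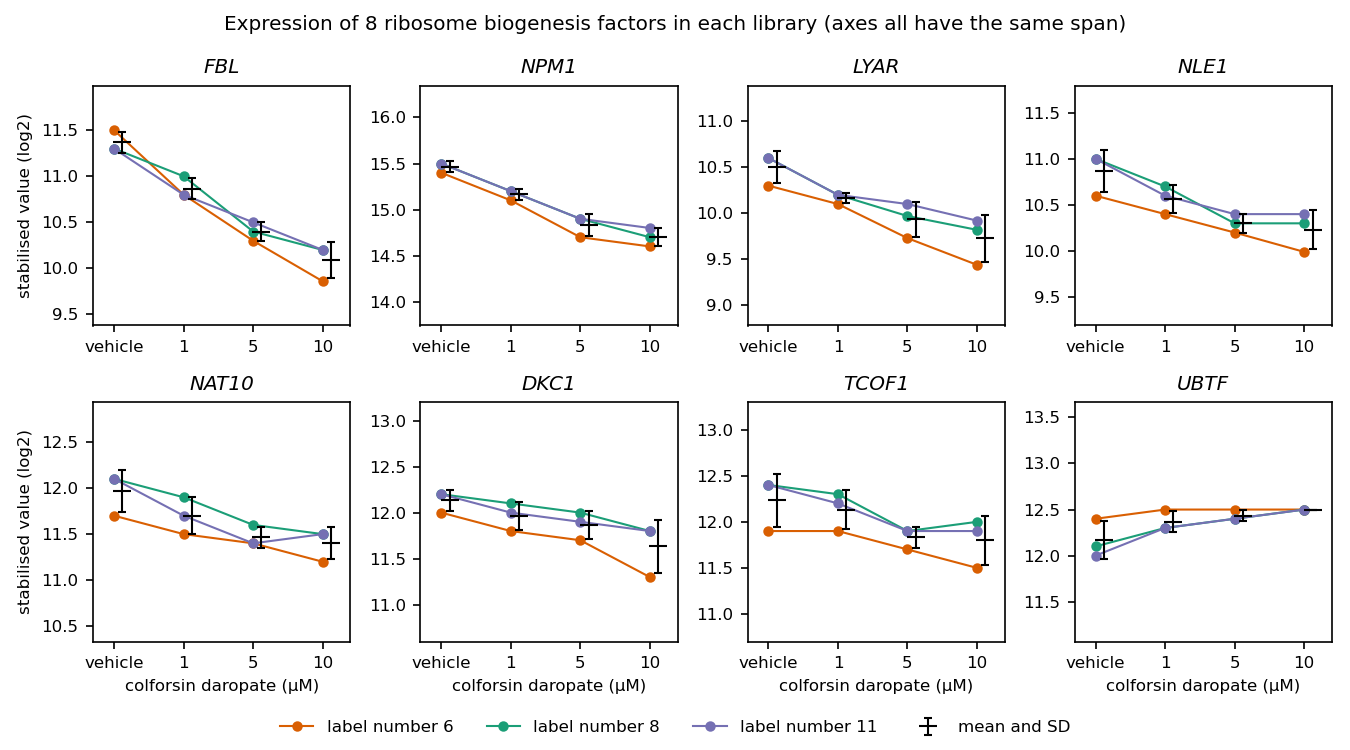
Deposited log2-like values in each of the 12 libraries for the members named by rule, with dose in µM on the x axis and lines joining libraries of 1 label number; black marks are the mean and SD of 3 libraries. FBL falls from vehicle to 10 µM in all 3 label numbers, while UBTF ends at 12.5 in each.

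Of the 4 box H/ACA genes, DKC1 fell at 10 µM. DKC1 encodes dyskerin, the pseudouridine synthase that is mutated in X-linked dyskeratosis congenita (chrX:154762742-154777689, plus strand). Its values were 12, 12.2 and 12.2 in vehicle libraries 6, 8 and 11, 11.8, 12.1 and 12 at 1 µM, 11.7, 12 and 11.9 at 5 µM, and 11.3, 11.8 and 11.8 at 10 µM. The 10 µM libraries all lay below the vehicle libraries, with number 6 lowest, and the difference was -0.50 ± 0.14 (limma adjusted p = 0.0233). Its adjusted p was 0.072 without the 10 µM library of number 6, 0.0783 and 0.0748 without vehicle 8 and vehicle 11, and 0.152 and 0.157 without numbers 8 and 11. NOLC1, a chaperone of these particles, and the core proteins GAR1 and NHP2 differed by -0.33, -0.32 and -0.27 with limma adjusted p of 0.0606, 0.0635 and 0.0867. All 4 genes fell with the block, with limma adjusted p of 1.27e-04 for DKC1 and 0.0494 for NHP2, where 19.7% of all tested genes fell.

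NAT10 was the 1 gene of the 14 for the small subunit to pass the test, at both of the higher doses, and it fell. NAT10 encodes the acetyltransferase that makes acetylcytidine in 18S rRNA (chr11:34105602-34147670, plus strand). NAT10 read 11.7, 12.1 and 12.1 in vehicle libraries 6, 8 and 11, 11.5, 11.9 and 11.7 at 1 µM, 11.4, 11.6 and 11.4 at 5 µM, and 11.2, 11.5 and 11.5 at 10 µM. No library at 5 µM or 10 µM reached the vehicle range. The differences were -0.50 at 5 µM (limma adjusted p = 0.0293) and -0.57 ± 0.14 at 10 µM (limma adjusted p = 0.0115). Without vehicle 8 the adjusted p at the highest dose was 0.0505, and it was 0.125 and 0.152 without numbers 8 and 11. The 5 µM call was lost without vehicle 8, vehicle 11, or the 5 µM library of number 6 or 11, and without number 8 or 11, at adjusted p of 0.0895 to 0.37.

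The other 13 small subunit genes had differences between -0.50 and 0.00 at 10 µM, and the median of all 14 was -0.28. NOB1, the nuclease that trims the 3′ end of 18S rRNA, had a mean as low, at -0.50 (limma adjusted p = 0.0623), made of -0.20 in number 6 and an average of -0.65 in numbers 8 and 11. DDX10, an RNA helicase, differed by -0.40 in each of the 3 numbers (limma adjusted p = 0.0621, or 1.23e-04 with the block). Of the early complex that binds the nascent transcript, UTP4, WDR43 and WDR75 differed by -0.32, -0.30 and -0.23. RRP12, an export factor, did not differ in its mean (0.00 ± 0.23, SE), and IMP4 and BYSL, factors of early processing and late 40S maturation, were at -0.10 and -0.09. Among the rest, NOP14 and UTP20 of the early 90S particle were both at -0.33, the methyltransferase EMG1 was at -0.20, and the late cytoplasmic factors TSR1 and LTV1 were at -0.27 and -0.15. With the block, 10 of the 14 fell, beside 19.7% of all tested genes.

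BOP1, NIP7, NLE1 and RRP1B fell among the 15 large subunit genes at 10 µM, and the median difference was -0.30. NLE1 encodes a WD-repeat factor that the AAA ATPase MDN1 removes from maturing large subunits, as shown in yeast (chr17:35128753-35142315, minus strand). Its values were 10.6, 11 and 11 in vehicle libraries 6, 8 and 11, 10.4, 10.7 and 10.6 at 1 µM, 10.2, 10.3 and 10.4 at 5 µM, and 9.99, 10.3 and 10.4 at 10 µM. All the 5 µM and 10 µM libraries lay below vehicle 6, the lowest of the vehicle libraries. The differences were -0.57 at 5 µM (limma adjusted p = 0.0162) and -0.64 ± 0.14 at 10 µM (limma adjusted p = 0.00602), a count ratio of 0.631. The 5 µM call was lost without vehicle 8, vehicle 11 or the 5 µM library of number 6 (adjusted p of 0.06 to 0.0695), and both calls were lost without number 8 or 11. NLE1 shares exon bases with FNDC8 on the opposite strand, so reads of the pair may not have been told apart.

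RRP1B, a nucleolar protein of large subunit processing, was at 11.3, 11.6 and 11.6 in vehicle libraries 6, 8 and 11, 11.1, 11.4 and 11.4 at 1 µM, 11, 11.1 and 11.2 at 5 µM, and the same 11, 11.1 and 11.2 at 10 µM. Its difference was thus -0.40 at both higher doses (limma adjusted p = 0.0303 and 0.022). Both calls were lost without vehicle 8, vehicle 11, the treated library of number 6 or number 8, or all libraries of number 8 or 11, with adjusted p of 0.0568 or more. NIP7, a factor of 60S maturation, read 11.6, 11.8 and 11.8 in vehicle libraries, 11.5, 11.7 and 11.7 at 1 µM, 11.2, 11.6 and 11.5 at 5 µM, and 11, 11.4 and 11.4 at 10 µM. The 10 µM libraries of NIP7 were all below vehicle, by -0.47 ± 0.13 (limma adjusted p = 0.0239). That p was 0.0881 without the 10 µM library of number 6, 0.0811 and 0.0778 without vehicles 8 and 11, and 0.17 and 0.166 without numbers 8 and 11. NIP7 shares exon bases with COG8 on the opposite strand, with the same limit.

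BOP1 belongs with PES1 and WDR12 to the PeBoW complex that processes the large subunit precursor. BOP1 had 11.3, 11.2 and 11.3 in vehicle libraries 6, 8 and 11, 11.3, 11.3 and 11.1 at 1 µM, 11.1, 10.8 and 10.9 at 5 µM, and 10.4, 11.1 and 10.9 at 10 µM. The library of number 6 was the low one at 10 µM, with a difference of -0.90 there and an average of -0.25 in numbers 8 and 11. The mean difference of -0.47 ± 0.15 had a limma adjusted p of 0.0435, and 0.0826 without number 6. The call was lost without any single library other than the 5 µM library of number 6 and the 10 µM library of number 8, with adjusted p of 0.0507 to 0.12, and without number 8 or 11 (0.0977 and 0.229). Its partners WDR12 and PES1 differed by -0.37 and -0.23 (limma adjusted p = 0.141 and 0.238, or 0.000503 and 0.0168 with the block).

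RRS1, which helps to place the 5S particle, had a mean difference of -0.56 (limma adjusted p = 0.0983), spread over values of 9.62, 10.5 and 10.2 at 10 µM and 10.4, 10.7 and 10.9 in vehicle libraries 6, 8 and 11. MRTO4, which holds the place of the ribosomal stalk protein, differed by -0.40 (limma adjusted p = 0.0548). FTSJ3, an RNA methyltransferase, was at 0.03, and GNL3, also called nucleostemin, at -0.17. NOP16, a factor of early 60S particles, differed by -0.30, the GTPase GNL2 by -0.23 and the helicase DDX18 by -0.20, with limma adjusted p of 0.136, 0.06 and 0.105, or 0.0107, 0.0172 and 0.00929 with the block. NOP2 and PPAN had the lowest values of all members, with means of 6.62 and 7.24 at 10 µM and 6.67 and 7.49 in vehicle. Both share exon bases with another gene on their own strand, and the part of this overlap in their levels was not tested.

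NPM1, NCL, LYAR and PA2G4 fell at 10 µM among the 6 nucleolar regulators, the role with the lowest median, -0.43. NPM1 encodes nucleophosmin, a histone and ribosome chaperone of the outer nucleolus (chr5:171387116-171411137, plus strand). NPM1 was at 15.4, 15.5 and 15.5 in vehicle libraries 6, 8 and 11, 15.1, 15.2 and 15.2 at 1 µM, 14.7, 14.9 and 14.9 at 5 µM, and 14.6, 14.7 and 14.8 at 10 µM. No treated library at any dose overlapped with vehicle. Its mean normalised count was 26600 ± 1847 at 10 µM and 45248 ± 1792 in vehicle (SD, n = 3 each), a ratio of 0.588.

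The differences of NPM1 were -0.30 at 1 µM (limma adjusted p = 0.118, or 0.00642 with the block), -0.63 at 5 µM (9.31e-04) and -0.77 ± 0.09 at 10 µM (1.77e-04). Without numbers 8 and 11 the adjusted p of the 5 µM difference was 0.0934 and 0.0633. NPM1 has 45 named pseudogenes in the annotation, so its reads can be split among copies and its level is uncertain. The share of reads that aligned to more than 1 place was 19.3%, 20.02% and 21.2% in the 10 µM libraries and 20.5%, 23.7% and 25.6% in vehicle libraries 6, 8 and 11, and its part in the NPM1 result was not tested.

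LYAR, a nucleolar zinc-finger protein (chr4:4267701-4290169, minus strand), had values of 10.3, 10.6 and 10.6 in vehicle libraries 6, 8 and 11, 10.1, 10.2 and 10.2 at 1 µM, 9.73, 9.97 and 10.1 at 5 µM, and 9.44, 9.82 and 9.92 at 10 µM. Its treated libraries lay below all the vehicle libraries at every dose. The differences were -0.57 at 5 µM (limma adjusted p = 0.0167) and -0.77 ± 0.14 at 10 µM (limma adjusted p = 0.00215), and mean counts at 10 µM were 0.572 of those in vehicle. The 5 µM call was lost without vehicle 8, vehicle 11, the 5 µM library of number 6 or all of number 8 or 11 (adjusted p of 0.0659 to 0.273), and the 10 µM call without number 8 (0.0926).

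NCL, or nucleolin, which binds nascent pre-rRNA, was at 14.9, 14.9 and 15.0 in vehicle libraries 6, 8 and 11, 14.6, 14.8 and 14.8 at 1 µM, 14.6, 14.8 and 14.7 at 5 µM, and 14.3, 14.7 and 14.7 at 10 µM. PA2G4, an ErbB3-binding protein of the nucleolus, was at 12, 12.1 and 12.1 in vehicle, 11.9, 12 and 12 at 1 µM, 11.7, 11.9 and 11.9 at 5 µM, and 11.5, 11.8 and 11.9 at 10 µM. Neither gene overlapped between 10 µM and vehicle, with differences of -0.37 ± 0.12 for NCL and -0.33 ± 0.10 for PA2G4 (limma adjusted p = 0.0398 and 0.0331). The NCL call was lost without any single library other than the 5 µM library of number 6, the 1 µM library of number 6 and the 10 µM libraries of numbers 8 and 11, with adjusted p of 0.0509 to 0.132. The PA2G4 call was lost without vehicle 8, vehicle 11, or the 10 µM library of number 6 or 8, with adjusted p of 0.0521 to 0.107, and both calls were lost without number 8 or 11. MYBBP1A, a MYB-binding protein that represses RNA polymerase I, differed by -0.50 (limma adjusted p = 0.133) and the helicase DDX21 by -0.17 (limma adjusted p = 0.556). Both passed with the block, at 0.00197 and 0.0313. PA2G4 shares exon bases with AC034102.4 on the opposite strand and AC034102.2 on its own, which leaves its level uncertain.

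With all libraries, the mean was never higher at the next dose for 34 members, and 36 had their lowest mean at 10 µM, beside 18.7% and 30% of all tested genes. Without the 10 µM library of number 6 these counts were 13 and 12, beside 15.9% and 27.5%. The mean at 10 µM was below that at 5 µM for 40 members and above it for 6, beside 47.5% and 47.1% of all tested genes. With the 10 µM library of number 6 left out, it was below for 13 and above for 33, beside 48.1% and 49%. A slope over dose rank was negative for 21 members and positive for 1, UBTF (limma adjusted p under 0.05), and for 13.5% and 13% of all tested genes. With the block, 34 had a negative slope, as did 19.9% of all tested genes. Without the block, 11 had a negative slope after leaving out the 10 µM library of number 6, 13 after vehicle 8 and 12 after vehicle 11, beside 11.3%, 10.9% and 11% of all tested genes. Leaving out numbers 8 and 11 gave 8 and 7, beside 5.75% and 7.36%. The positive slope of UBTF was lost without vehicle 8, vehicle 11, number 8 or number 11. TCOF1 was among the members with a negative slope (limma adjusted p = 0.0282).

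Between doses, FBL and NPM1 were lower at 10 µM than at 1 µM, by -0.78 and -0.47 (limma adjusted p = 0.00368 and 0.0171), and 2.54% of all tested genes fell in that comparison. With the block 21 members fell between these doses, and 11.4% of all tested genes. Without the block, 1 member fell after leaving out the 10 µM library of number 6 or the 1 µM library of number 8 or 11, beside 0.636%, 0.439% and 0.726% of all tested genes. Without number 6, 13 fell, beside 6.69%, and without number 8 or 11 limma called 0 members and 0% of all tested genes. Limma called 0 members lower at 5 µM against 1 µM and 0 at 10 µM against 5 µM, where it called 0.118% and 0.0% of all tested genes. At an unadjusted p under 0.05, 2 and 1 members were lower in these 2 comparisons, and the share of all tested genes at that threshold was not counted.

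**Figure D4:**
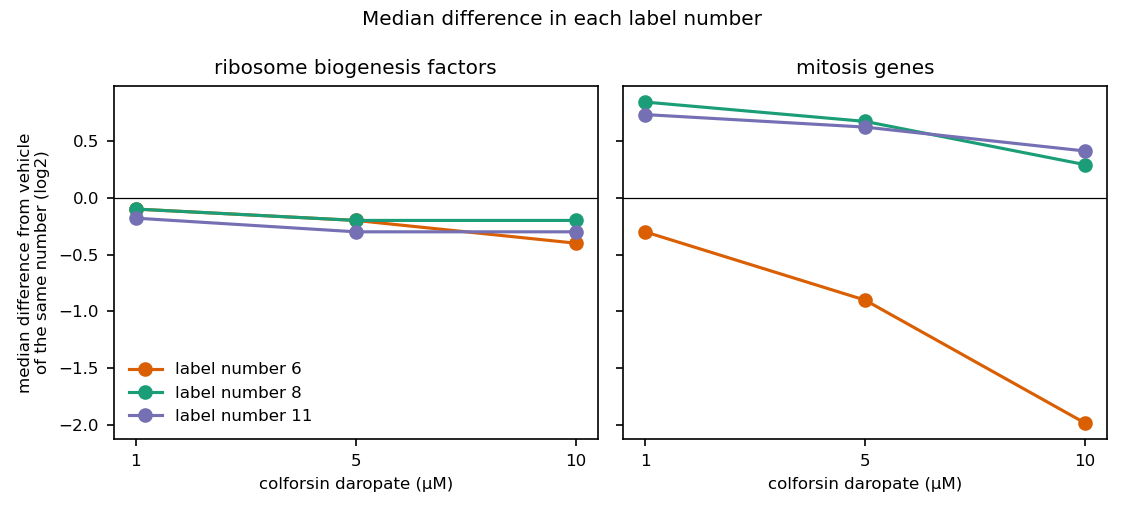
Median difference from the vehicle library of the same label number over the 49 members and over the 19 mitosis genes, by dose in µM and label number. The members are below 0 in each number, while the mitosis genes are below 0 in number 6 and above 0 in numbers 8 and 11.

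The label numbers agreed for the members and differed for cell division. At 10 µM the median member differences in numbers 6, 8 and 11 were -0.40, -0.20 and -0.30, with 43, 42 and 45 members lower. Of the 17767 tested genes, 8411, 8364 and 8481 were lower there. At 5 µM the median member differences were -0.20, -0.20 and -0.30, so that the members' median was lower at 10 µM in number 6 alone. The median of the mitosis genes differed from vehicle of the same number by -1.98, 0.29 and 0.41 in the same order, and limma called 0 of these 19 genes at any dose. At an unadjusted p under 0.05 it called 0 as well, or 5 lower at 10 µM with the block, and the share of all tested genes there was not counted. Without number 6 it called 8, 9 and 6 higher at 1 µM, 5 µM and 10 µM after adjustment, beside 6.75%, 14% and 16.2% of all tested genes. The members' median was below 0 in each number, and the part of cell division in the members' differences was not tested. MYC itself differed by -1, -0.60 and -0.80 in numbers 6, 8 and 11.

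Counts per kilobase of exon ranked the members from high to low. In vehicle, NPM1 had 11820 and NCL 4510 normalised counts per kilobase, followed by WDR43, an early pre-rRNA factor, with 2502 and DDX21 with 2430. At the low end NOP2, an rRNA methyltransferase, had 11.1, PPAN 48.97, UTP4 219 and GAR1 233. The shared exon bases of NOP2 and PPAN and the pseudogenes of NPM1 leave their places in this ranking uncertain. The host genes of small nucleolar RNAs were among the members as well: 9 of the 49 (POLR1C, NOP56, NOP58, DKC1, WDR43, TSR1, GNL3, PPAN and NCL) carry 28 annotated small nucleolar RNAs. Of these hosts 3, NOP58, DKC1 and NCL, fell at 10 µM, beside 12 of the 49 members and 11.4% of all tested genes. With the block NOP56, WDR43 and TSR1 fell as well, where 19.7% of all tested genes fell.

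A wider list of 103 other ribosome biogenesis factors had medians nearer 0, a difference from the members that was not tested. Their median differences were -0.07, -0.13 and -0.17 at 1 µM, 5 µM and 10 µM. Of these 103, 2 fell at 1 µM, 7 fell and 2 rose at 5 µM, and 24 fell and 3 rose at 10 µM, where 7.67% and 11.2% of all tested genes rose at 5 µM and 10 µM. As shares these falls were 1.94%, 6.8% and 23.3%, beside 0.613%, 7.44% and 11.4% of all tested genes, so the share at 5 µM was below that of all genes. With the block, 12, 35 and 47 fell at the 3 doses (11.7%, 33.98% and 45.6%), beside 5.26%, 15.3% and 19.7% of all tested genes. In that fit 2, 7 and 9 rose, where 6.76%, 15.3% and 18.7% of all tested genes rose.

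Of 10 other genes of RNA polymerase I transcription, 6 fell at 10 µM with a median of -0.37, beside 11.4% of all tested genes; without the block none of the 6 members of that role fell. With the block 8 of the 10 fell, and 2 of the 6 members, TCOF1 and POLR1B, beside 19.7% of all tested genes. POLR1E, the polymerase subunit also called PAF53, had the largest fall of the wider list, -0.84 ± 0.11 (limma adjusted p = 3.79e-04), with values of 9.99, 10.2 and 10.3 at 10 µM and 10.8, 11.1 and 11.1 in vehicle libraries 6, 8 and 11. TEX10 and NOP53, factors of large subunit maturation, fell by 0.83 each on the log2-like scale (limma adjusted p = 0.00289 and 0.00274). The 3 factors that rose were NOP9, the helicase DDX24 and PIH1D1 of the R2TP complex, a chaperone for snoRNP assembly (limma adjusted p = 0.00321, 0.0408 and 0.0315). DDX24 and PIH1D1 differed by 0.30 and 0.23. The largest mean difference of the wider list at 10 µM was 1.1, in the small subunit role, where 1 of 40 genes rose.

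The promoters were examined for the E-box CACGTG, the core sequence that MYC and its partner MAX bind. The window ran from 250 bases before to 50 bases after the RefSeq start on GRCh38.p14, and 41 of the 49 members had an entry. CACGTG, which reads the same on both strands, was in 16 of these 41 (39.0%), in 23 of 90 other factors (25.6%), in 1497 of 12693 genes of the table (11.8%) and in 2548 of all 35116 promoters (7.26%). Members with the letters had a median difference of -0.31 at 10 µM (n = 16) and those without them -0.30 (n = 25). Of the 9 members with an entry that fell at 10 µM 3 held the letters, and of the other 32 there were 13.

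The windows below are shown because they belong to the members with the largest falls and to the 1 member that rose. They run 5′ to 3′ on the gene's strand, with CACGTG in capitals. FBL (chr19:39846330-39846629, minus strand) and NLE1 (chr17:35142254-35142553, minus strand) hold it 6 and 12 bases after the start. NPM1 (chr5:171387599-171387898, plus strand), LYAR (chr4:4290105-4290404, minus strand) and UBTF (chr17:44220833-44221132, minus strand) do not have these letters in the window.
FBL: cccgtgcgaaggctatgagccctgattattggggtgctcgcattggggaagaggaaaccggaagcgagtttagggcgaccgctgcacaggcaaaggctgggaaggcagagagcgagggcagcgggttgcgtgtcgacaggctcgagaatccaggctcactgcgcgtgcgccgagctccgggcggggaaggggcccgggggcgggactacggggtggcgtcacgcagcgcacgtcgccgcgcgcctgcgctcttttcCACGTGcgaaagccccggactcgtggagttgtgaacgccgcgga
NLE1: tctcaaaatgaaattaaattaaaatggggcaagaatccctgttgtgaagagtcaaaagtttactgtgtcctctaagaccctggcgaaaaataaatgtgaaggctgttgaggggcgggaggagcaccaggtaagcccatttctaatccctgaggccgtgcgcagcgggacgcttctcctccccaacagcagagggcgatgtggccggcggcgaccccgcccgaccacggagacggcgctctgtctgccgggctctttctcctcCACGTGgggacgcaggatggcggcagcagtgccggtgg
NPM1: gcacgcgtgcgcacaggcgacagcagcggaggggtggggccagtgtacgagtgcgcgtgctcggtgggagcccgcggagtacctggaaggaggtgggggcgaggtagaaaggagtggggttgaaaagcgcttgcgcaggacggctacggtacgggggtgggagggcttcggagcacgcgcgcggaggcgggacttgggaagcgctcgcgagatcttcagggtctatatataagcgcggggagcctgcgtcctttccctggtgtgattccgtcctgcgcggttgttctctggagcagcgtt
LYAR: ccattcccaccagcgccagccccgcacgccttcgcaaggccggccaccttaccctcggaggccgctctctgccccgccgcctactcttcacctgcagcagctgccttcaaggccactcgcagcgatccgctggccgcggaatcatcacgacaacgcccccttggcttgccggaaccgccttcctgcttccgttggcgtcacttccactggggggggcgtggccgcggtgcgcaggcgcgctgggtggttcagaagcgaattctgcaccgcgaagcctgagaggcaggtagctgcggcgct
UBTF: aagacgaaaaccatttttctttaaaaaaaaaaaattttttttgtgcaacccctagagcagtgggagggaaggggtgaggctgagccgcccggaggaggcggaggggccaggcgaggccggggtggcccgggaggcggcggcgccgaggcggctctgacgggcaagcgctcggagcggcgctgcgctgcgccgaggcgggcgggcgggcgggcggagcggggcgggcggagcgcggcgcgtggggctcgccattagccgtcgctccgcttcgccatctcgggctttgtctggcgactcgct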

How the data were processed

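RNA-seq of HEYA8 cells was deposited as a single table of variance-stabilised values for 12 libraries in 4 groups of 3. The authors' deposited values are log2-like, floored at 4.86 and rounded to 3 significant digits, so that members at 10 or above move in steps of 0.1. DESeq2 and the GRCh38 (hg38) build are named per the submitters' processing notes, while the aligner, counter, strand setting and annotation are not given in the sources used here. Left out were 4 entries that name no gene (reads in no feature, ambiguous, unaligned or not unique), so that genes held 33.9% to 36.7% of each library's reads.

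A gene was tested if 3 or more libraries exceeded the floor by more than 1. Tests were made with limma 3.58.1 (R 4.3.3) over all 12 libraries with a variance trend, two-sided, with Benjamini-Hochberg adjustment at 0.05. Normalised counts were recovered by inverting the stabilising curve, and single-read steps gave each library's depth in reads counted in genes. The rounding is worth 3.53% of a count from 10 up. All low values lay within 0.01 of a step. Counts are values per library scaled to a common size, and n = 3 limits their precision. Same-numbered libraries correlated in their deviations from group means in all 9 pairs (r from 0.316 to 0.777), above the 0.1 required, so the title's number was taken to pair them. Libraries of numbers 8 and 11 also correlated with each other (r from 0.202 to 0.57; the 1 µM library of number 8 more with vehicle 11, 0.537, than with vehicle 8, 0.506), and number 6 correlated negatively with both. Values per library are given for members by a rule: in each role the largest difference and the smallest adjusted p at 10 µM, plus those that rose; the other members that fell were chosen after their values were seen. The members, the 103 other factors and the lists were chosen with earlier results of these data known. Gene positions and exon overlaps are from GENCODE 29 on GRCh38, and promoters from RefSeq. Alternatives were other filters, normalisations, variance settings, array weights, 2 groups only, voom on recovered reads scaled by the recovered size factors, the block, and libraries left out. The limma fit was tested on simulated data without and with the block, while the recovery of counts and the promoter search were not.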

Additional observations from a re-analysis of the deposited data

How the results depend on the processing

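The count of members lower at 10 µM (12) was 36 with the replicate block and 35 with voom on recovered reads and the block. It was 32 with array weights and 5 with 2 groups only. Of all tested genes, 19.7%, 19.2%, 21.2% and 7.19% were lower in these settings. At 5 µM the member count (6) was 24, 24 and 27 in the first 3 of these, beside 15.3%, 15.2% and 21.5%. At 1 µM (1) the member count was 10, 10 and 12 in these 3, beside 5.26%, 5.25% and 13.8% of all tested genes. It was 0 with no variance trend or with 2 groups only, beside 0.585% and 0.107%. Members higher numbered 1 at 5 µM with the block, with array weights or with voom and the block, beside 15.3%, 21.6% and 15.0% of all tested genes. They numbered 1 at 1 µM with array weights and 0 at 10 µM with 2 groups only, beside 15.1% and 7.18%. Between 10 µM and 1 µM the block gave 21 lower and array weights 11, between 5 µM and 1 µM 3 and 6, and the slope was negative for 34 and 32. Of all tested genes, the shares in the same order were 11.4% and 8.31%, 2.68% and 5.80%, and 19.9% and 22.5%. The block after leaving out number 6, and voom with the block, were added after seeing the data. Without number 6 the block gave 12, 26 and 28 lower and 1, 1 and 1 higher at 1 µM, 5 µM and 10 µM. Of all tested genes, 6.50%, 14.8% and 18.2% were lower and 7.99%, 14.9% and 17.2% higher. Between 10 µM and 1 µM 14 members were lower and 1 higher, beside 8.35% and 6.23% of all tested genes. Between 5 µM and 1 µM 3 members were lower, beside 1.95%.

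Leaving out 1 library gave 0 to 1 members lower at 1 µM, 2 to 11 at 5 µM and 4 to 18 at 10 µM, with 0 higher at 1 µM and 0 to 1 at the other doses, 1 to 2 lower between 10 µM and 1 µM, and 11 to 28 negative and 0 to 1 positive slopes. Of all tested genes, 0.158% to 1.69%, 4.28% to 8.80% and 8.05% to 12.4% were then lower at the 3 doses. Higher were 0.405% to 2.28%, 4.65% to 8.51% and 7.52% to 11.9%. Between 10 µM and 1 µM 0.439% to 4.58% of all tested genes were lower. Slopes were negative for 10.9% to 13.9% and positive for 9.82% to 13.5%. Leaving out 1 label number gave 0 to 10, 1 to 23 and 2 to 28 members lower at the 3 doses. It gave 0 to 1 higher at each. Between 10 µM and 1 µM 0 to 13 were lower and 0 to 1 higher. Between 5 µM and 1 µM 0 to 3 were lower. There were 7 to 29 negative and 0 to 1 positive slopes. Of all tested genes, 0% to 5.48%, 0.315% to 13.8% and 1.42% to 17.2% were then lower at the 3 doses. Higher were 0.0113% to 6.75%, 0.456% to 13.99% and 1.95% to 16.2%. Between 10 µM and 1 µM 0% to 6.69% of all tested genes were lower and 0% to 5.26% higher. Between 5 µM and 1 µM 0% to 1.41% were lower. Slopes were negative for 5.75% to 17.1% and positive for 5.92% to 15.9%. Without 1 library, the median difference ran from -0.23 to -0.042 at 1 µM, -0.27 to -0.17 at 5 µM and -0.383 to -0.183 at 10 µM. FBL and NPM1 passed at 10 µM in 26 of 26 alternatives, LYAR in 25, NLE1 in 24 and NAT10 in 23, whereas UBTF lost its call in 8, NCL in 12 and BOP1 in 17. Differences that changed sign were uncalled: BOP1 at 1 µM was 0.0124 with array weights and 0.05 without number 11, and without 1 library ran from -0.067 to 0.033, while TCOF1 at 1 µM ran from -0.267 to 0.017. The cause was not tested. Rounding to 0.1 limits what can be seen in 38 of the 49 members.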
